A study of Mus musculus with 47 samples.

Results

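Expression of the hypothalamic melanocortin system was examined through 10 genes, namely the peptide precursors Agrp, Npy, Pomc and Cartpt, the receptors Mc3r and Mc4r, and the peptide-processing genes Pcsk1, Pcsk2, Pcsk1n and Cpe. They were taken by symbol from a table of raw read counts that held 14221 genes, and all 10 were present and tested. The table was made from mRNA of the hypothalamus of 47 mice, 1 library per mouse. All mice were males of the leptin-deficient ob/ob strain, aged 11 weeks by the labels, and each received a single intracerebroventricular (icv) injection, so that obesity from lack of leptin was common to every group. The question was how fibroblast growth factor 1 (FGF1), given icv at 3 ug, changed the transcriptome at different times after the injection. On Day 1 there were 10 FGF1-treated and 4 vehicle-treated mice, and on Day 42 there were 5 of each. On Day 5 there were 9 FGF1-treated mice and 2 vehicle groups of 7, one labelled non-diabetic and the other labelled diabetic. All vehicle-treated mice were pair-fed to the FGF1-treated mice, and those of Days 1 and 42 were labelled non-diabetic. The study's methods set a blood glucose criterion for diabetes and exclude ob/ob mice that did not meet it, the sources used here do not tie the non-diabetic label to that criterion, and the protocol text names 7 vehicle mice for Day 5 where the labels hold 14, so what the label parts is uncertain. Separate mice were used on each day, and no lean or uninjected group was analysed here.

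In the arcuate nucleus, neurons that make agouti-related protein (encoded by Agrp) and neuropeptide Y (Npy) promote feeding, while neurons that cleave proopiomelanocortin (Pomc) into alpha-melanocyte-stimulating hormone restrain it. Both act on the melanocortin receptors MC3R and MC4R, which the Pomc product activates and AGRP blocks. Leptin restrains the first kind of neuron and activates the second, and its absence makes ob/ob mice hyperphagic. The precursors are cut by the prohormone convertases PC1/3 (Pcsk1) and PC2 (Pcsk2) and trimmed by carboxypeptidase E (Cpe), and the product of Pcsk1n, proSAAS, inhibits PC1/3.

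Total counts ranged from 7579695 to 47082403 per library, apart from 1 FGF1-treated mouse of Day 1 (replicate 1) with 1243280. On Day 5, FGF1 replicates 8 and 9 had 30009258 and 27922117, and the other 21 libraries of that day had 7579695 to 12451642. No 2 libraries held identical counts. Each day had its own preparation code, so day and preparation cannot be told apart, whereas FGF1 and vehicle were compared within 1 preparation. Markers of hypothalamic nuclei were present in every library, with a summed level of 399.9 to 1580 normalized counts over 12 genes, and a list of 8 thalamic markers summed to 442 to 2270. A library of the FGF1 group on Day 42 (replicate 5) stood apart, with 508 normalized counts of the cortical gene Slc17a7 against 11.2 to 88.6 in the other 9 mice of that day, and 98.6 of the choroid plexus gene Kl against 6.75 to 14.8. In bulk RNA, fewer cells of a type and less RNA per cell cannot be told apart.

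Values below are normalized counts, that is CPM (reads of a gene relative to the library total) after TMM scaling. A gene was called changed when the edgeR quasi-likelihood test gave an adjusted p under 0.05 (Benjamini-Hochberg over all 14221 genes) and the log2 fold change (log2 FC, FGF1 minus vehicle) exceeded 0.5 in size. Per kb of exon, Cpe was the most abundant of the 10 transcripts in every group, with group means of 532 to 1013 normalized counts per kb. Npy came next on Days 1 and 42 (52.5 to 293 per kb). On Day 5 Pcsk1n (78.1 to 88.4 per kb) was above Npy (64.2 to 87.2), whereas on the other days it was at 4.64 to 8.60. Both receptor transcripts were the scarcest in every group, at 1.41 to 4.89 per kb for Mc3r and 0.944 to 1.81 for Mc4r. Mc3r was above Mc4r on Days 1 and 42, and on Day 5 Mc4r was above it with FGF1 (1.81 and 1.41) and in the non-diabetic vehicle group (1.68 and 1.48).

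Mice of the same group differed far more in some of these genes than in others. The SD within groups, on the log2 scale of normalized counts, was 0.73 for Pomc, 0.60 for Pcsk1n, 0.59 for Agrp and 0.44 for Npy. These values were as large as or larger than those of 99.7%, 99.2%, 99.1% and 97.0% of all genes. For the enzymes the spread was ordinary or small, with 0.18 for Pcsk1 (45.4% of genes), 0.16 for Pcsk2 (35.5%) and 0.12 for Cpe (14.6%). Cartpt (0.33), Mc4r (0.29) and Mc3r (0.21) lay in between.

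On Day 1, 4 of the 10 genes were called, Pomc and Mc4r being higher and Npy and Pcsk1 lower after FGF1. Over all genes 19.5% were called in this comparison, 11.5% higher and 8.05% lower. Pomc had the largest change of the 10, at 3.27-fold, and Mc4r was 1.94-fold higher, while Npy and Pcsk1 fell to 0.655-fold and 0.677-fold of vehicle. Mc3r, Pcsk2 and Cpe also had an adjusted p under 0.05 but stayed under the fold threshold, and Agrp, Cartpt and Pcsk1n did not pass the test. With limma after quantile normalization Mc3r (0.30, adjusted p = 0.103) and Cpe (-0.03, adjusted p = 0.791) did not pass either. For 4 of the 10 genes (Pomc, Mc3r, Pcsk1 and Pcsk2) the values of both groups did not overlap, against 14.4% of all genes.

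**Figure D1:**
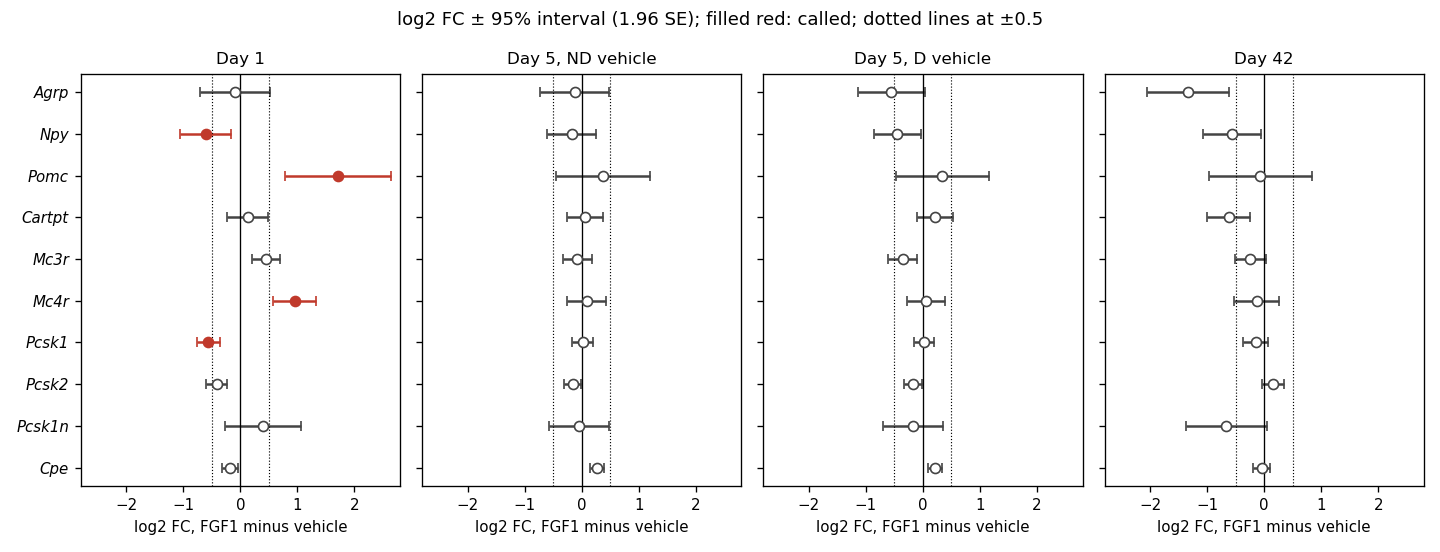
log2 FC of the 10 genes in 4 comparisons of FGF1 with vehicle (x axis, 1 panel per comparison, with ND and D for the Day 5 vehicle groups labelled non-diabetic and diabetic); bars are 95% intervals, and filled red points are called genes. Called points appear in the Day 1 panel only, with Pomc at 1.71, Mc4r at 0.95, Npy at -0.61 and Pcsk1 at -0.56.

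Of the 10 genes, 7 had a RefSeq promoter window on GRCm38.p6. Windows are printed for Npy, Pomc and Pcsk1, which were called on Day 1, so that the sequence upstream of each can be seen beside its values. The call of Npy rested on single vehicle mice, as given below. Each is given 5′ to 3′ on the coding strand (plus in all 3) and ends before the first base of the GENCODE gene, and capitals mark motif matches. They lie at chr6:49822460-49822709 (Npy), chr12:3954695-3954944 (Pomc) and chr13:75089607-75089825 (Pcsk1).
Npy: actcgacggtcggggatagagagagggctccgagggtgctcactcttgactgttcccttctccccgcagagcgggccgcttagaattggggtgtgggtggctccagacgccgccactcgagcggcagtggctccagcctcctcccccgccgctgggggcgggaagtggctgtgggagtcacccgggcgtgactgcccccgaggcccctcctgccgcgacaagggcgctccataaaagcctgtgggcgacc
Pomc: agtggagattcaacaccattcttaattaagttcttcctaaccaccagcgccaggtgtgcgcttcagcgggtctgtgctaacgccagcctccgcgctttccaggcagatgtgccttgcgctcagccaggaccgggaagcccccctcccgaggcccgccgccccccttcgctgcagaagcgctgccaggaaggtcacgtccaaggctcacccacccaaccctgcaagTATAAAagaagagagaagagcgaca
Pcsk1: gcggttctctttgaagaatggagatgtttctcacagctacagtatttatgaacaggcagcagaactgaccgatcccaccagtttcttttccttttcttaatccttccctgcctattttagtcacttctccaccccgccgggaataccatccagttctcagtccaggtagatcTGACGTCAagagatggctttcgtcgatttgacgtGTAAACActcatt
The motifs searched on both strands of the 250 bases before the RefSeq start were TTCNNNGAA, which STAT factors bind, GTAAACA, which FOXO factors bind, TGACGTCA, the cAMP response element, and TATAAA, the core promoter box. For Pcsk1 the RefSeq start lies inside the GENCODE gene, so that 31 of the searched bases are within the gene and are not printed, and its distances are given from the end of the printed sequence. Pomc held 1 TATAAA, 25 to 20 bases from the end, a match found in 12.4% of 32851 mouse windows. Pcsk1 held TGACGTCA at 47 to 40 bases and GTAAACA at 13 to 7 bases from the end, which occur in 1.55% and 3.17% of windows. The Npy window held none of the 4, and TTCNNNGAA, present in 7.02% of windows, was in none of the 3. A match describes the letters only.

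Agrp (GRCm38 chromosome 8, 105566698 to 105637393, minus strand) encodes the inverse agonist of both receptors. On Day 1 the vehicle-treated mice had 77.01, 30.7, 45.0 and 20.3 normalized counts, and the 10 FGF1-treated mice ranged from 26.3 to 63.6 with a median of 38.6. The vehicle values spread over the whole range of the treated mice and beyond it on both sides. Its log2 FC came to -0.09 (SE 0.31, edgeR adjusted p = 0.840), with a 95% interval of -0.70 to 0.53. Exons of Agrp share 114 bases with Ctcf on the other strand, which had 72.7 to 89.6 normalized counts with FGF1 and 73.8 to 86.1 with vehicle, and 114 bases with Gm5914 on the same strand. Exons of Pcsk2 share bases with Pcsk2os1 and Pcsk2os2 and those of Pcsk1n with Eras, all on the other strand, and none of these 4 was in the table. Since the strand setting of the counting is not given in the sources used here, reads of such pairs may not be separated.

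Npy (chromosome 6, 49822710 to 49829507, plus strand) is made by the same neurons but also by cells outside the arcuate nucleus. Its vehicle values were 235, 175, 171 and 81.7, and the FGF1-treated mice ranged from 80.8 to 151 with a median of 108. All 10 treated mice were below the vehicle median, but 1 vehicle mouse lay as low as the lowest treated mice. This gave a log2 FC of -0.61 (SE 0.23, edgeR adjusted p = 0.0281). The call rested on single vehicle mice, since it was lost without replicate 1 (log2 FC -0.39), replicate 2 (-0.58) or replicate 3 (-0.60) of that group, with an adjusted p of up to 0.213, and without replicate 4 the log2 FC was -0.83. It was also lost with limma after quantile normalization (-0.56, adjusted p = 0.0673) and with limma voom sample weights (-0.43, adjusted p = 0.186).

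Pomc (chromosome 12, 3954951 to 3960642, plus strand) had 7.20, 4.26, 4.93 and 7.88 normalized counts in the vehicle-treated mice of Day 1. In FGF1-treated mice it ranged from 9.66 to 38.1 with a median of 18.5, so that every treated mouse exceeded every vehicle mouse. The log2 FC was 1.71 (SE 0.47, edgeR adjusted p = 0.00293), and it stayed between 1.54 and 1.86 when any 1 mouse was left out. The highest value, 38.1 in replicate 8, stood apart from the next, 24.0. Raw counts were low to moderate, from 22 in the shallow library of FGF1 replicate 1, whose normalized count of 17.9 was close to the median. Pomc is also abundant in the anterior pituitary. The pituitary gene Cga had 1.09 to 18.1 normalized counts in the treated and 4.403 to 7.397 in the vehicle mice of Day 1 (log2 FC 0.63, edgeR adjusted p = 0.273), and the 4 analysed of 14 listed pituitary markers summed to 13.6 to 27.4 and 20.3 to 27.4. Their part in the Pomc result was not tested.

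Cartpt (chromosome 13, 99898489 to 99901091, minus strand) encodes the CART peptide, which is made by Pomc neurons of rodents and by other hypothalamic cells. Vehicle values on Day 1 were 54.7, 42.3, 38.3 and 47.3, and treated mice ranged from 36.1 to 61.1 with a median of 51.4. The groups overlapped widely, with a log2 FC of 0.13 (95% interval -0.23 to 0.49, edgeR adjusted p = 0.584). A change in Cartpt as large as that of Pomc lay outside this interval.

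**Figure D2:**
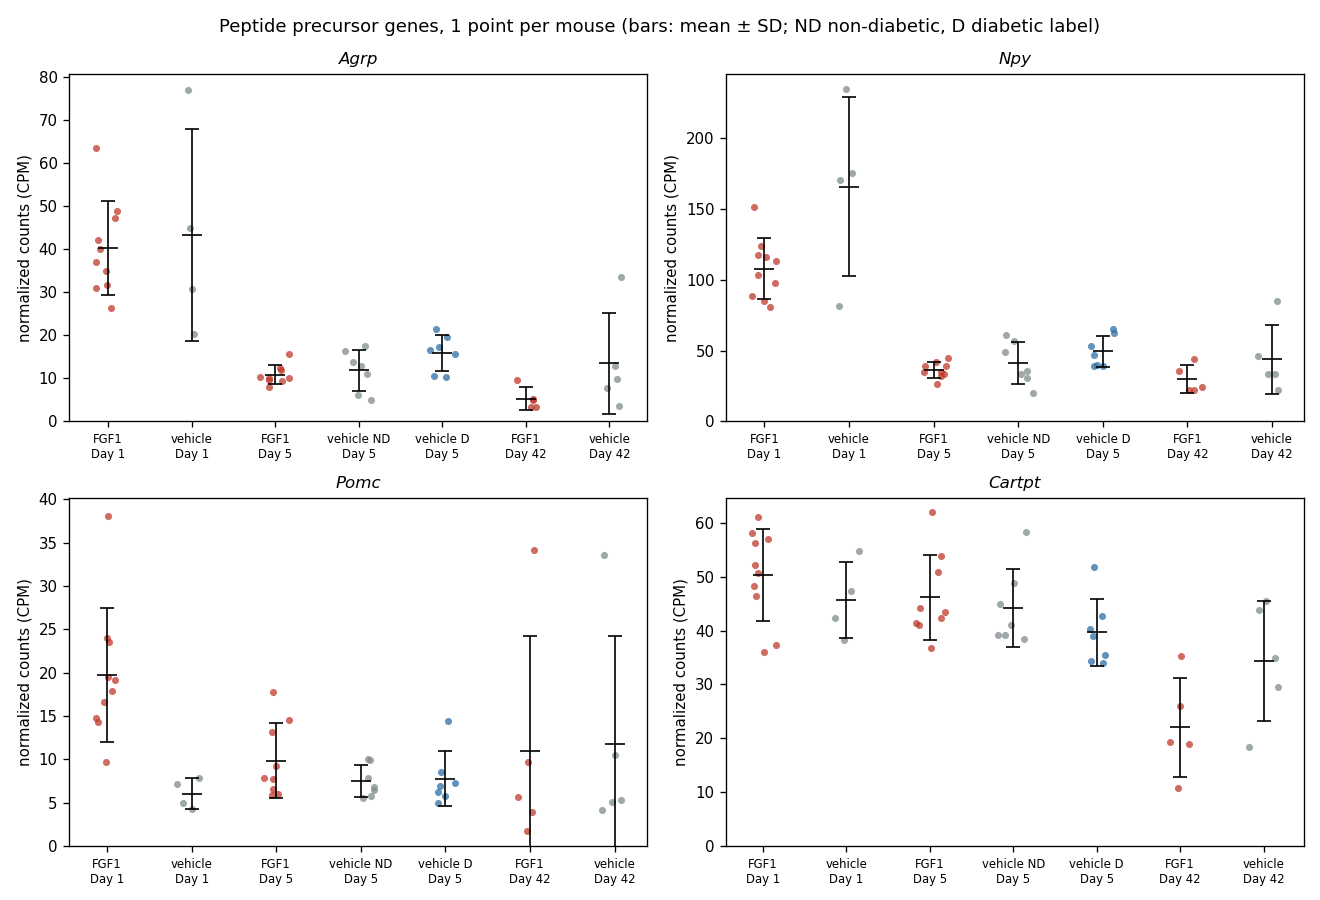
Normalized counts (CPM, y axis) of the 4 peptide precursor genes, 1 point per mouse, by treatment and day (x axis); bars give the mean ± SD, and ND and D are the Day 5 vehicle groups labelled non-diabetic and diabetic (lower bars of Pomc on Day 42 are cut at 0). Pomc on Day 1 is 9.66 to 38.1 with FGF1 and 4.26 to 7.88 with vehicle, and 1 mouse of each Day 42 group is near 34 (34.1 and 33.5).

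Within single libraries, the balance of Agrp against the other 2 precursors was measured as the log2 ratio of raw counts. On Day 1 the Agrp to Pomc ratio was 2.70 ± 0.92 in vehicle-treated mice (SD, n = 4) and 1.07 ± 0.42 in FGF1-treated mice (SD, n = 10). The difference of -1.63 had p = 0.00300 in a two-sided exact permutation test (0.0200 after adjustment over the 10 ratio tests), and it stayed between -2.08 and -1.40 when any 1 mouse was left out. The Agrp to Npy ratio moved the other way, from -2.01 ± 0.37 to -1.44 ± 0.19, a difference of 0.57 (exact permutation p = 0.00400, adjusted p = 0.0200). On Day 5 the Agrp to Pomc ratio was 0.22 ± 0.61 with FGF1, 0.56 ± 0.52 in the non-diabetic vehicle group and 1.06 ± 0.79 in the diabetic one, and neither difference passed after adjustment (exact permutation, adjusted p = 0.409 and 0.109). On Day 42 the ratios to Pomc ranged from -2.78 to 0.97 with FGF1 and from -2.10 to 2.71 with vehicle, and the exact permutation p was 0.524. The Agrp to Npy ratio was -1.75 ± 0.14 with FGF1 on Day 5 (SD, n = 9), within the spread of the non-diabetic (-1.83 ± 0.38) and diabetic (-1.65 ± 0.26) vehicle groups (exact permutation, adjusted p = 0.581 and 0.414). On Day 42 it was -2.55 ± 0.72 with FGF1 and -1.93 ± 0.48 with vehicle (SD, n = 5 each), a difference of -0.62, opposite in sign to Day 1, that did not pass (exact permutation p = 0.143, adjusted p = 0.357).

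**Figure D3:**
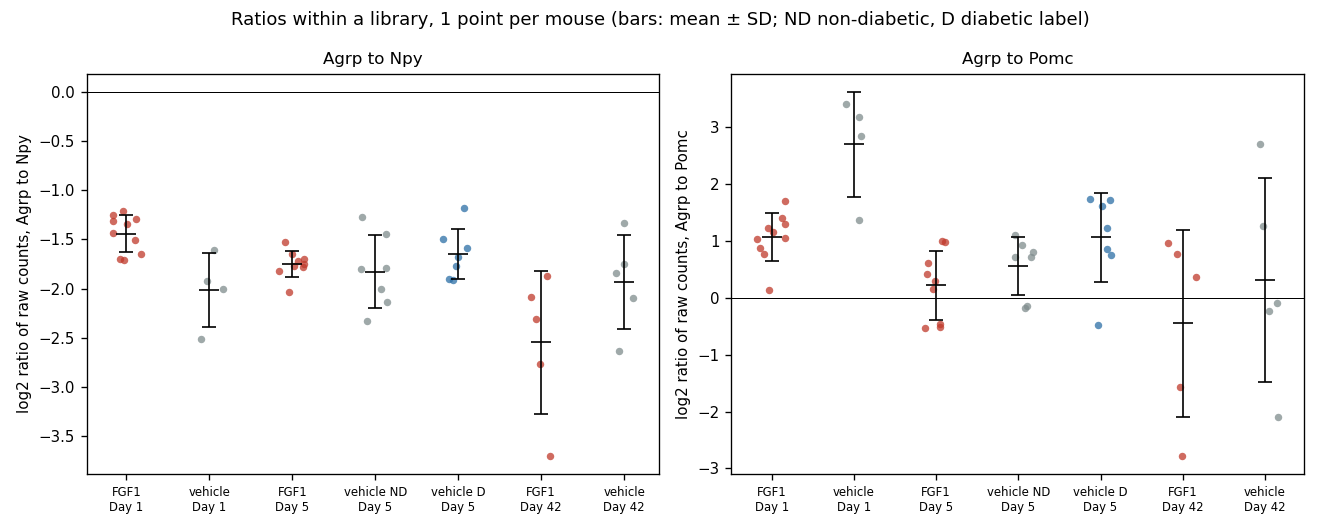
log2 ratio of raw counts of Agrp to Npy (left) and of Agrp to Pomc (right) within each library (y axis), 1 point per mouse by treatment and day (x axis); bars give the mean ± SD. On Day 1 the Agrp to Pomc ratio of FGF1-treated mice centres on 1.07 and that of vehicle-treated mice on 2.70.

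Mc3r (chromosome 2, 172248492 to 172251114, plus strand, a gene of 1 exon) encodes the receptor that many Agrp and Pomc neurons carry themselves. On Day 1 it had 10.9, 8.47, 9.29 and 8.78 normalized counts with vehicle and 10.9 to 15.0 with FGF1, with a median of 12.7. No treated mouse was as low as any vehicle mouse, the closest pair of values being 10.95 and 10.91. Mc3r had a log2 FC of 0.46 (SE 0.12, edgeR adjusted p = 0.00257), under the fold threshold, and without vehicle replicate 1 it was 0.54 and was called.

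Mc4r (chromosome 18, 66857704 to 66860506, minus strand, also of 1 exon) encodes the receptor through which the pathway restrains food intake. Its vehicle values on Day 1 were 2.17, 2.31, 3.47 and 2.63, and the treated mice ranged from 3.43 to 6.47 with a median of 5.25. Of the treated mice, 9 of 10 exceeded every vehicle mouse. Mc4r had a log2 FC of 0.95 (SE 0.19, edgeR adjusted p = 6.22e-05), and it ranged from 0.87 to 1.11 when any 1 mouse was left out. Raw counts of Mc4r were from 5 in the shallow library, and the gene was not tested where at least 10 counts were asked of every library.

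Pcsk1 (chromosome 13, 75089826 to 75134861, plus strand) and Pcsk2 (chromosome 2, 143546156 to 143816285, plus strand) encode the convertases that cut Pomc and other precursors. Pcsk1 had 110, 123, 111 and 99.8 normalized counts with vehicle on Day 1 and 63.6 to 95.2 with FGF1, with a median of 69.8. Pcsk2 had 352, 343, 337 and 364 with vehicle and 220.0 to 290.02 with FGF1, with a median of 264. Every treated mouse was below every vehicle mouse for both genes. The log2 FC was -0.56 for Pcsk1 (SE 0.10, edgeR adjusted p = 1.17e-05), which was called, and -0.42 for Pcsk2 (SE 0.09, edgeR adjusted p = 0.000199), which stayed under the fold threshold. Pan-neuronal transcripts moved the same way on Day 1, with a sum over 10 genes of 5074 to 6067 in treated and 6190 to 7360 in vehicle mice, and a log2 FC of -0.49 for Snap25 (edgeR adjusted p = 0.000371). None of these 10 was called. Markers of other hypothalamic nuclei (12 genes) summed to 819 to 1177 in treated and 1226 to 1580 in vehicle mice, and 2 of them, Nr5a1 and Pmch, were called lower. The 3 choroid plexus markers in the table (of 7 listed) summed to 18.7 to 36.3 and 42.9 to 56.2. Markers of other arcuate neurons (11 of 14 in the table) summed to 333 to 424 in treated and 294 to 414 in vehicle mice, with Gal called higher and Crabp1 called lower. The 8 astrocyte markers summed to 4802 to 5920 and 4457 to 5149, with a median log2 FC of -0.36, Gfap called higher and Gja1 and S100b called lower. The 7 tanycyte markers in the table (of 8 listed) summed to 178 to 264 and 218 to 332, with a median log2 FC of -0.39, Adm called higher and Col23a1 called lower. The part of these markers in the Day 1 results was not tested.

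Cpe (chromosome 8, 64592542 to 64693054, minus strand) encodes the enzyme that removes the basic residues left by the convertases. On Day 1 it had 2573, 3066, 2466 and 2470 normalized counts with vehicle and 2116 to 2617 with FGF1, with a median of 2323. Treated mice were lower on the whole, 8 of 10 below every vehicle mouse, by a log2 FC of -0.19 (SE 0.07, edgeR adjusted p = 0.0281). Without vehicle replicate 2, the mouse at 3066, the value was -0.11 (edgeR adjusted p = 0.252). Pcsk1n (chromosome X, 7919822 to 7924410, plus strand) had 20.8, 8.75, 8.52 and 19.7 with vehicle and 6.88 to 33.6 with FGF1. Its values overlapped throughout, with a log2 FC of 0.40 (95% interval -0.27 to 1.06, edgeR adjusted p = 0.351).

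**Figure D4:**
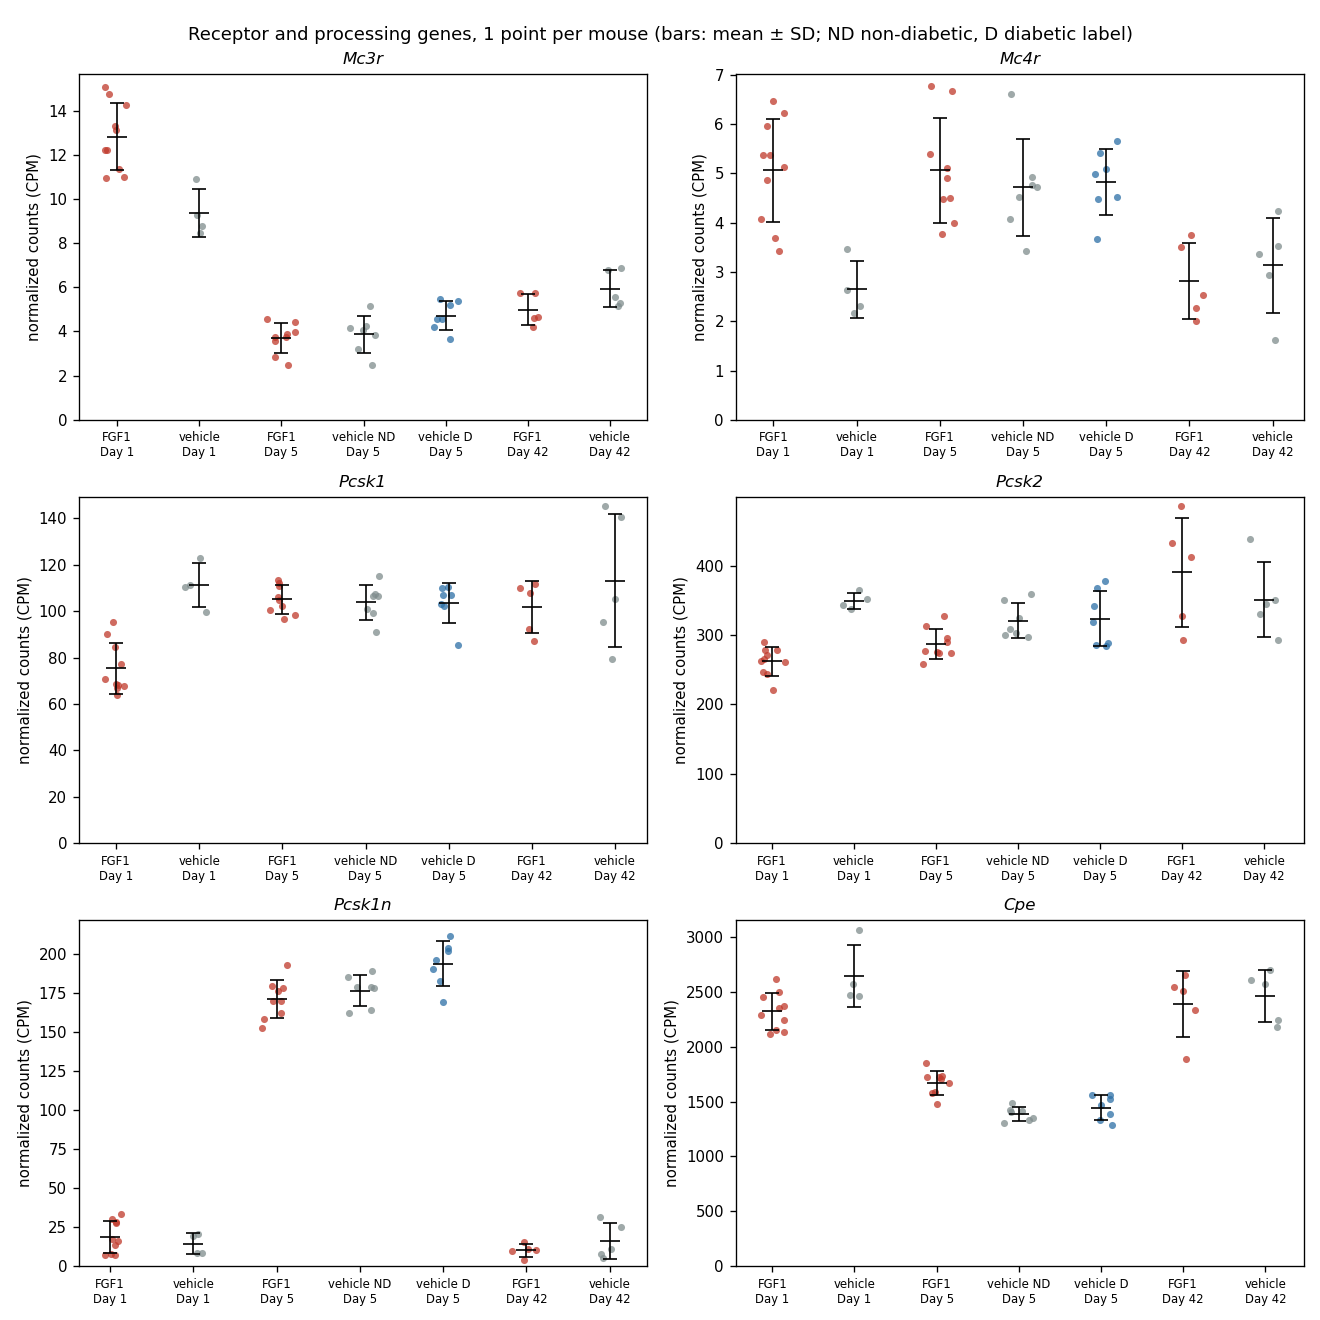
Normalized counts (CPM, y axis) of the receptor and processing genes, 1 point per mouse, by treatment and day (x axis); bars give the mean ± SD, and ND and D are the Day 5 vehicle groups labelled non-diabetic and diabetic. Pcsk1 on Day 1 lies at 63.6 to 95.2 with FGF1 and 99.8 to 123 with vehicle, and Pcsk1n lies above 150 (152.7 to 211.6) in all Day 5 mice and at 4.17 to 33.6 on the other days.

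Other genes of the pathway were read from 6 lists. Together 50 of their genes were tested, of which 7 rose and 0 fell on Day 1 (14.0%, beside 19.5% of all genes called and 11.5% higher). Of the receptors and other peptides of the NPY family, 3 of 7 listed genes were tested, and 2 rose on Day 1 and 0 fell. Npy1r, a postsynaptic receptor, was 20.8 ± 1.97 with vehicle (SD, n = 4) and 32.9 ± 4.39 with FGF1 (SD, n = 10), a log2 FC of 0.65 (edgeR adjusted p = 8.05e-07). Npy2r, which acts as an autoreceptor on Agrp neurons, was 22.6 ± 3.05 and 42.4 ± 6.62, a log2 FC of 0.91 (edgeR adjusted p = 4.41e-06). Npy5r did not pass the test (0.32, edgeR adjusted p = 0.0724). The median log2 FC of the 3 was 0.65, beside 0.01 over all genes. Of the melanocortin accessory proteins, agouti relatives and other melanocortin receptors, 6 of 11 were tested and none was called on any day. Among them the receptor accessory protein Mrap2 had a Day 1 log2 FC of 0.07 (edgeR adjusted p = 0.674), and Sdc3, a syndecan that aids AGRP action, had 0.34 (edgeR adjusted p = 0.00213) and stayed under the fold threshold.

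Among the other convertases and their chaperone, 8 of 8 were tested and 1 was called on Day 1, the ubiquitous convertase Furin, at 20.2 ± 5.06 with vehicle and 32.6 ± 8.33 with FGF1 (log2 FC 0.71, edgeR adjusted p = 0.000120). Its direction was opposite to that of Pcsk1. Scg5, the chaperone of PC2, had a log2 FC of -0.46 (edgeR adjusted p = 2.13e-10), under the fold threshold and close to that of Pcsk2. Of 12 granins and other dense-core vesicle genes, 1 rose and 0 fell, and this was Vgf, a granin-like precursor that is also cut by convertases (116 ± 41.2 and 234 ± 70.7, log2 FC 1.01, edgeR adjusted p = 8.59e-06). Of 9 trimming, amidation and breakdown enzymes, 8 were tested and Prep, a prolyl peptidase, was the 1 called (log2 FC 0.66, edgeR adjusted p = 6.98e-07). Of 14 transcription factors of these neurons, 13 were tested and 2 rose on Day 1. Stat3, the mediator of leptin signalling that is also used by glia, was 91.4 ± 8.41 with vehicle and 294 ± 41.8 with FGF1 (log2 FC 1.69, edgeR adjusted p = 2.57e-21), and Dlx5 was 2.41 ± 0.72 and 3.74 ± 0.75 (log2 FC 0.65, edgeR adjusted p = 0.00832). None of the genes on the 6 lists was called on Days 5 or 42.

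On Day 5, none of the 10 genes was called against either vehicle group, where 1.54% of all genes were called against the non-diabetic and 2.85% against the diabetic vehicle mice. No gene of the 10 had groups free of overlap, compared with 3.93% and 6.08% of all genes. Both comparisons use the same 9 FGF1-treated mice. At an unadjusted edgeR p under 0.05 there was 1 of the 10 in the first and 4 in the second, beside 16.5% and 21.8% of all genes, and DESeq2 also called none of the 10. The exact permutation test of single genes, unadjusted, gave 2 (Cpe and Pcsk2) and 6 (Agrp, Npy, Mc3r, Pcsk1n, Pcsk2 and Cpe) with p under 0.05, beside 33.5% and 39.5% of all genes.

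Cpe was the gene with the smallest p in both. It ranged from 1475 to 1854 normalized counts with FGF1 (median 1707), from 1304 to 1487 in the non-diabetic vehicle group (median 1407) and from 1287 to 1561 in the diabetic one (median 1466). In each comparison 8 of 9 treated mice exceeded every vehicle mouse. This corresponded to log2 FC of 0.27 (SE 0.06, edgeR adjusted p = 0.00396) and 0.21 (SE 0.06, edgeR adjusted p = 0.0208), both under the fold threshold and opposite in sign to Day 1. Against the diabetic group the edgeR adjusted p was 0.0634 without vehicle replicate 4, 0.0533 without vehicle replicate 5 and 0.0898 without the 2 deepest FGF1 libraries (replicates 8 and 9). With limma after quantile normalization the log2 FC was 0.17 and 0.10 (adjusted p = 0.0527 and 0.262). Astrocyte markers (8 genes) summed to 5301 to 5857 with FGF1, 4631 to 4841 in the non-diabetic and 4501 to 5051 in the diabetic vehicle group, and their part in the Cpe values was not tested.

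Agrp and Npy were lower with FGF1 than in the diabetic vehicle group by values that did not pass the test. Agrp ranged from 8.08 to 15.6 with FGF1 (median 10.2), from 5.05 to 17.4 in the non-diabetic vehicle group (median 13.0) and from 10.4 to 21.6 in the diabetic group (median 16.7). All 9 treated mice lay below the median of the diabetic group, and the log2 FC was -0.55 (SE 0.30, edgeR unadjusted p = 0.0737, adjusted p = 0.287, exact permutation p = 0.0102). Npy ranged from 26.3 to 45.1 with FGF1 and from 39.1 to 64.9 in the diabetic group, with a log2 FC of -0.45 (edgeR adjusted p = 0.209, exact permutation p = 0.00621). Crabp1, a marker of other arcuate neurons, was called lower against both vehicle groups (3.16 ± 0.912 with FGF1, 4.62 ± 0.687 and 4.92 ± 0.974 normalized counts), while the list it belongs to summed to 266 to 371, 232 to 438 and 225 to 414. Markers of other hypothalamic nuclei summed to 399.9 to 760 with FGF1 and 598 to 905 in the diabetic group, and the part of these markers was not tested. In a fit of the Day 5 libraries alone, Agrp was called with a log2 FC of -0.54. Mc3r had a log2 FC of -0.36 against the diabetic group (edgeR adjusted p = 0.0659), the opposite sign to Day 1. Npy and Mc3r reached an adjusted p under 0.05 against this group under other settings, at log2 FC under the fold threshold. Against the non-diabetic group, the values were -0.12 for Agrp, -0.17 for Npy and -0.08 for Mc3r.

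Pomc on Day 5 was 5.89 to 17.8 with FGF1 (median 7.89), 5.60 to 10.0 in the non-diabetic and 5.03 to 14.4 in the diabetic vehicle group. All 3 ranges overlapped, and the log2 FC of 0.38 and 0.34 had SEs of 0.42 each, with 95% intervals of -0.44 to 1.21 and -0.47 to 1.16. A rise as large as the 1.71 of Day 1 lay outside both intervals. Mc4r was 3.77 to 6.77, 3.42 to 6.61 and 3.66 to 5.66 normalized counts, with log2 FC of 0.09 and 0.05. Pcsk1 was 96.7 to 113.5, 90.9 to 115.03 and 85.6 to 110.4, with log2 FC of 0.02 in each comparison. For Cartpt (0.06 and 0.22), Pcsk2 (-0.16 and -0.17) and Pcsk1n (-0.05 and -0.18) no value passed the test in the main fit. Under other settings Pcsk2 against both vehicle groups and Pcsk1n against the diabetic group reached an adjusted p under 0.05. Their log2 FC stayed under the fold threshold.

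The 2 vehicle groups of Day 5 were compared as well, to learn whether the label diabetic or non-diabetic went with a difference. None of the 10 genes was called, as for all genes (0%, with 193 of 14221 at an unadjusted p under 0.05 and none called by DESeq2). Among the 10, Mc3r alone had an unadjusted edgeR p under 0.05, at 3.87 ± 0.845 in the non-diabetic and 4.72 ± 0.661 in the diabetic group (mean ± SD). Its log2 FC was 0.28 (edgeR p = 0.0470, adjusted p = 1.00), and 3 of 7 diabetic mice exceeded every non-diabetic mouse (exact permutation p = 0.0606). In the exact permutation test Pcsk1n was the 1 gene with an unadjusted p under 0.05 (p = 0.0280, beside 5.42% of all genes under it), with 5 of 7 diabetic mice above every non-diabetic mouse and a log2 FC of 0.13.

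On Day 42 no gene of the 10 was called, and 0% of all genes were (776 of 14221 at an unadjusted p under 0.05, none called by DESeq2). None of the 10 had groups free of overlap, and 0.267% of all genes did. Of the 10, 3 had an unadjusted edgeR p under 0.05, namely Agrp, Npy and Cartpt, with values below vehicle, and none had an exact permutation p under 0.05, beside 1.77% of all genes. Markers of other arcuate neurons (11 of 14 in the table) summed to 195 to 304 with FGF1 (median 242) and 228 to 439 with vehicle (median 330.2), and their part in these values was not tested.

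Agrp was 4.95, 5.15, 9.70, 3.25 and 3.39 normalized counts with FGF1 and 12.9, 3.52, 7.82, 9.89 and 33.6 with vehicle. All 5 treated mice lay below the vehicle median, yet the vehicle mouse at 3.52 was within their range and the one at 33.6 was far above its group. The log2 FC was -1.34 (SE 0.36, edgeR unadjusted p = 0.000638, adjusted p = 0.332). Without the vehicle mouse at 33.6 (replicate 5) it was -0.67, without FGF1 replicate 3 it was -1.70, and without FGF1 replicate 5 it was -1.23. The exact permutation test gave p = 0.103, the smallest possible being 0.00397.

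Npy followed the same mice, with 24.6, 21.9, 35.5, 22.1 and 44.4 with FGF1 and 46.2, 21.9, 33.4, 33.2 and 84.8 with vehicle. The exception was FGF1 replicate 5, with the highest Npy and nearly the lowest Agrp of its group, which is the library with high Slc17a7 and Kl. Its Agrp to Npy log2 ratio was -3.70, the lowest of all 47 libraries. The log2 FC of Npy was -0.57 (SE 0.26, edgeR adjusted p = 0.854), and it ranged from -0.75 (without FGF1 replicate 5) to -0.19 when any 1 mouse was left out. The part of the cortical and choroid plexus RNA in these values was not tested.

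Cartpt was 26.0, 19.0, 35.2, 19.3 and 10.7 with FGF1 and 35.0, 45.5, 29.5, 18.3 and 43.7 with vehicle. The lowest value again came from FGF1 replicate 5, and the groups overlapped. The log2 FC was -0.62 (SE 0.20, edgeR unadjusted p = 0.00255, adjusted p = 0.412), between -0.86 and -0.46 when any 1 mouse was left out, the latter without FGF1 replicate 5.

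Pomc was set apart on Day 42 by 1 mouse in each group. It had 34.1, 3.98, 5.68, 9.65 and 1.72 normalized counts with FGF1 and 5.38, 4.15, 33.5, 10.5 and 5.13 with vehicle. The 2 mice above 33 also had the highest Cga of their groups, 17.9 and 7.24, against 2.10 to 4.99 in the other 8. The log2 FC of Pomc was -0.07 (SE 0.46, edgeR adjusted p = 1.00), and it was 0.84 without the high vehicle mouse (replicate 3) and -1.12 without the high FGF1 mouse (replicate 1). Without FGF1 replicate 2, 3 or 5 it was 0.13, 0.11 or 0.19. The part of pituitary RNA was not tested.

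The receptors and processing genes on Day 42 were as follows. Mc3r was 4.22 to 5.74 with FGF1 and 5.14 to 6.86 with vehicle (log2 FC -0.24, edgeR adjusted p = 1.00), and Mc4r was 2.00 to 3.75 and 1.62 to 4.23 (-0.13). Pcsk1 was 87.1 to 112 and 79.3 to 145 (-0.15), Pcsk2 was 292 to 486 and 292 to 438 (0.15, and 0.06 without FGF1 replicate 5) and Cpe was 1891 to 2651 and 2182 to 2699 (-0.05). Pcsk1n was 4.17 to 15.7 and 5.46 to 31.4, with a log2 FC of -0.66 and a 95% interval from -1.38 to 0.05, and the value was -0.26 without vehicle replicate 5. In all 6 genes the ranges overlapped.

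Whether the effect of FGF1 differed between days was tested directly as a difference of log2 FC between days. From Day 1 to Day 5 (against the non-diabetic vehicle group), 3 of the 10 genes differed, while 15.8% of all genes did. Mc4r differed by -0.87 (SE 0.25, edgeR adjusted p = 0.00852), Mc3r by -0.53 (SE 0.18, edgeR adjusted p = 0.0230) and Pcsk1 by 0.58 (SE 0.14, edgeR adjusted p = 0.00105). The difference for Mc3r was near the fold threshold. It was not called with DESeq2 (-0.50), with DESeq2 size factors (-0.49) or with either limma fit (-0.49 and -0.45), nor without any 1 of 4 mice (vehicle replicate 2 of Day 1, FGF1 replicates 1 and 9 and non-diabetic vehicle replicate 7 of Day 5), where it lay between -0.49 and -0.45. Pomc differed by -1.33, which did not pass (edgeR adjusted p = 0.107), although its change was called on Day 1 and not on Day 5. In a fit of the libraries of these days alone it was -1.30 and called (edgeR adjusted p = 0.00712), while with all days fitted together, under other filters, scalings and tools, the adjusted p was 0.0659 to 0.181. Cpe, whose sign turned, differed by 0.45 (edgeR adjusted p = 0.000198), under the fold threshold. Under other settings the Cpe difference was as small as 0.19, and its adjusted p was not always under 0.05.

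From Day 1 to Day 42, 5 of the 10 differed, against 16.4% of all genes. These were Pomc (-1.78, edgeR adjusted p = 0.0375), Cartpt (-0.75, 0.0322), Mc3r (-0.70, 0.00364), Mc4r (-1.08, 0.00244) and Pcsk2 (0.57, 0.00128). Those of Mc3r and Mc4r were called whichever mouse was left out, but not with limma voom sample weights (adjusted p = 0.0519 and 0.0507), nor that of Mc3r after quantile normalization (adjusted p = 0.0913). That of Pcsk2 was 0.48 and not called without FGF1 replicate 5 of Day 42, and 0.47 and 0.45 in the 2 limma fits. That of Pomc was lost without any 1 of 8 mice and fell to -0.88 without the vehicle mouse of Day 42 at 33.5. The Pomc call was also lost in the fit of the compared days alone (-1.75, edgeR adjusted p = 0.153). With limma voom sample weights it was -1.50 and not called (limma adjusted p = 0.140). Cartpt was lost without any 1 of 7 mice, in the fit of the compared days alone (-0.73, edgeR adjusted p = 0.141) and with sample weights (-0.37, limma adjusted p = 0.394). Agrp differed by -1.25 (edgeR adjusted p = 0.0522), from -1.68 to -0.59 with 1 mouse left out, and was called without any 1 of 7 mice. Without FGF1 replicate 5 of Day 42, 2 of the 10 remained called (16.4% of all genes). From Day 5 to Day 42 none differed, and 0.717% of all genes did. At an unadjusted p under 0.05 there were 4 of the 10, beside 9.98% of all genes. These were Agrp (-1.21), Cartpt (-0.69), Cpe (-0.31) and Pcsk2 (0.31). Without vehicle replicate 5 of Day 42 the Agrp difference was -0.55 (edgeR p = 0.200).

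Within groups, Agrp and Npy rose and fell together from mouse to mouse. Over the 47 libraries, with each group centred on its mean, Pearson's r of log2 normalized counts was 0.82 and Spearman's rho was 0.74 (permutation within groups, p = 1e-05 for each, the smallest that 100000 resamples give, and 4e-05 adjusted over 4 pairs). The r was 0.88 on Day 1 (14 mice), 0.83 on Day 5 (23 mice) and 0.78 on Day 42 (10 mice), and 0.75 without the 2 mice farthest in Agrp. Among 14122 genes with a mean of at least 1 CPM, Npy was the gene whose pattern was most like that of Agrp, ahead of Col5a3 (0.65), Cited1 (0.64), Flna (0.62) and Crocc2 (0.62). The 2 genes were read from the same libraries and tissue blocks.

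Agrp did not move with Pomc, the precursor made by the neighbouring neurons, with r = 0.07 and rho = 0.11 (permutation p = 0.746 and 0.491). The r was 0.34 on Day 1, 0.12 on Day 5 and -0.04 on Day 42. Pomc and Cartpt had r = 0.03 and rho = -0.19 (permutation p = 0.913 and 0.273), with 0.34 on Day 1, -0.51 on Day 5 and 0.14 on Day 42. The genes most like Pomc were Aga (0.60), Stk32a (0.59), 4933427D14Rik (0.57), Tmc4 (0.56) and Nkx2-4 (0.55). Pcsk2 and Cpe, which act in sequence, had r = 0.48 and rho = 0.41 (permutation p = 0.00505 and 0.0114, adjusted p = 0.0101 and 0.0228), and 0.35 without the 2 mice farthest in Pcsk2. By day it was 0.30, 0.22 and 0.77, and Day 42 was also the day on which the summed thalamic markers varied most (520 to 2270).

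**Figure D5:**
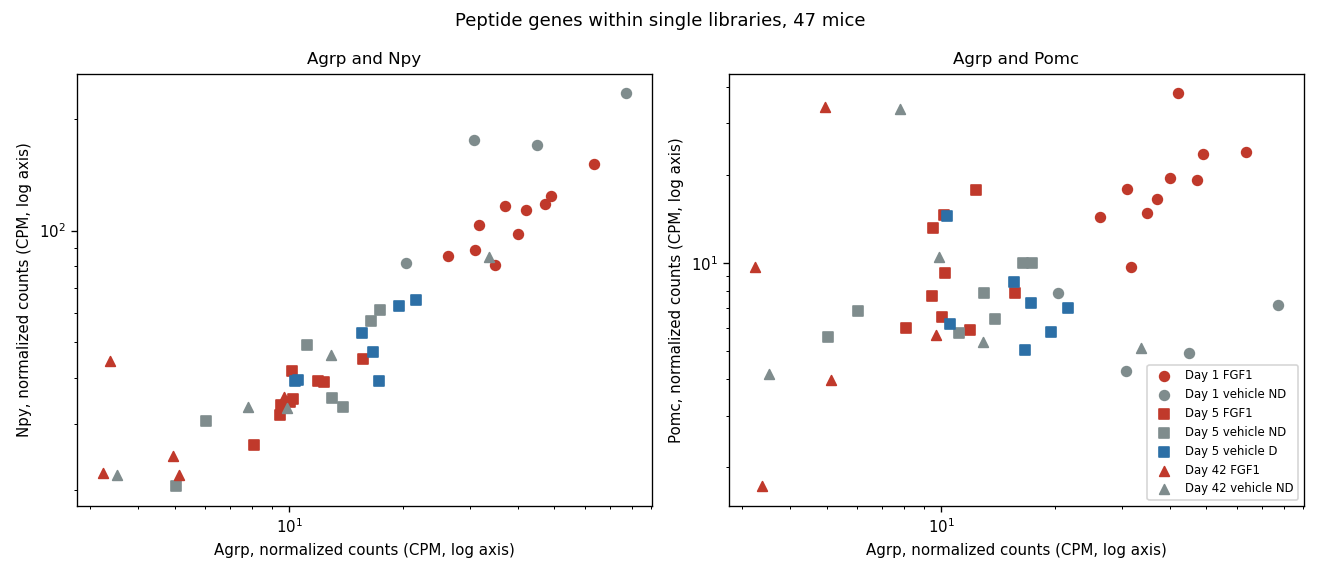
Normalized counts (CPM, log axes) of Agrp (x axis) against Npy (left) and against Pomc (right), 1 point per mouse, with shapes for days and colors for treatment. Agrp and Npy lie along 1 band with FGF1 replicate 5 of Day 42 above it (3.39 and 44.4), while Agrp and Pomc form no band (r = 0.82 and 0.07 within groups).

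Levels also differed between days, where day and preparation cannot be told apart. The largest such difference was in Pcsk1n, at 152.7 to 211.6 normalized counts in all 23 mice of Day 5 and at 4.17 to 33.6 in the 24 mice of the other days. Its values within groups followed those of Rpl36 (r = 0.95), Fau (0.94), Elob (0.94), Rplp2 (0.94) and Rplp1 (0.94), mostly genes of ribosomal proteins, a set looked up after the values were seen. Agrp was highest on Day 1, at 40.3 ± 10.9 with FGF1 and 43.3 ± 24.7 with vehicle, which did not differ beyond their spread, and the next group in order, the diabetic vehicle mice of Day 5, was at 15.9 ± 4.22. Npy followed the same order, with 166 ± 63.1 and 108 ± 21.2 on Day 1 and 49.4 ± 11.1 next. Mc3r was 12.8 ± 1.51 and 9.36 ± 1.08 on Day 1 and 3.69 to 5.93 as group means on the later days. For Mc4r the order was different, since the 3 groups of Day 5 (4.72 to 5.06) lay beside the FGF1 group of Day 1 (5.06), and both groups of Day 42 (2.81 and 3.14) lay beside the vehicle group of Day 1 (2.64). Cpe was lowest on Day 5 (group means 1389 to 1672) and 2323 to 2644 on the other days. Pcsk1 means lay between 102 and 113 in every group but the FGF1 group of Day 1, at 75.3 ± 11.0, which was lower than its neighbour in the order by more than the larger SD.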

How the data were processed

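The data are RNA-seq of hypothalamus from 47 mice in 7 groups, taken from the labels. The authors deposited raw counts per gene, after alignment with STAR (per the labels and methods, whose build is written as GRCh38 for these mouse data), and a table of preparation and group codes. Its codes put both vehicle groups of Day 5 into 1 group, whereas the labels part them. The counter, its strand setting and the filter behind the 14221 genes are not given in the sources used here. The kit was stranded.

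Counts were fitted with edgeR 4.0.16 (quasi-likelihood, TMM, 7 group means, R 4.3.3). Log2 scales used CPM + 0.5. The 50 exact permutation tests of single genes were two-sided and unadjusted, and their shares over all genes came from the same test. P-values measure the spread between mice. Alternatives used DESeq2 1.42.0 and limma 3.58.1, other filters, scalings and thresholds, and each mouse left out. Symbols of 14180 genes matched GENCODE M21 (GRCm38), and promoters came from RefSeq. The members and lists were chosen with earlier results of these data known. Scripts were tested on simulated data. Named genes were the 10 members, list genes called in a comparison, the 5 genes most like Agrp or Pomc, exon-sharing genes, and markers beside a result. Sdc3, Mrap2, Npy5r, Scg5 and the genes like Pcsk1n were added after their values were seen.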

Additional observations from a re-analysis of the deposited data

Results flagged for a closer look

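Of the 70 sets of values (10 genes in 7 groups), 5 held a mouse whose value was farther from its nearest neighbour than Dixon's 95% limit allows, and chance gives about 1 in 20 sets. All but 1 were high values of Pomc, namely 38.1 normalized counts in FGF1 replicate 8 of Day 1, 14.4 in diabetic vehicle replicate 6 of Day 5, 34.1 in FGF1 replicate 1 of Day 42 and 33.5 in vehicle replicate 3 of Day 42. The other was a low Pcsk1 of 85.6 in diabetic vehicle replicate 1 of Day 5, next to 102.1.

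The effect of FGF1 differed between days by a test of the difference. From Day 1 to Day 5 the log2 FC changed by -0.53 for Mc3r, by -0.87 for Mc4r and by 0.58 for Pcsk1. From Day 1 to Day 42 it changed by -1.78 for Pomc, by -0.75 for Cartpt, by -0.70 for Mc3r, by -1.08 for Mc4r and by 0.57 for Pcsk2. Over all genes, 15.8% differed from Day 1 to Day 5 and 16.4% from Day 1 to Day 42. The Mc3r difference to Day 5 was not called with DESeq2 or either limma fit. Those of Pomc and Cartpt to Day 42 were lost without any 1 of 8 and 7 mice. With limma voom sample weights none of the 10 was called to Day 42. Both comparisons share the Day 1 mice.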

How the results depend on the processing

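Under other settings or with 1 mouse left out, 1957 values were recomputed. Of these, 1848 were kept, 56 became weaker or fell below the threshold, 27 became stronger or rose past it and 26 changed sign. For single genes, ratios and correlations, kept means the same direction and side of the threshold. The other 221 values were counts of called genes. For them a count near the main one was taken as kept, as with 3 in place of 4 on Day 1. The cause of these changes was not tested. Without a fold threshold 7 of the 10 genes were called on Day 1 (45.0% of all genes), and 1 (Cpe) on Day 5 against either vehicle group (4.65% non-diabetic, 9.21% diabetic). Fitting the libraries of the compared days alone called 1 (Agrp) against the diabetic group (3.90% of all genes), 4 in the difference between Days 5 and 1 (with Pomc added to the 3 called, 17.2% of all genes) and 3 in that between Days 42 and 1 (11.2%). The latter gave 3 genes with quantile normalization (12.7%), 0 with limma voom sample weights (13.6%), and 2 to 7 with 1 mouse left out (2 without FGF1 replicate 5 and 7 without vehicle replicate 1 of Day 42, beside 16.4% and 18.1% of all genes). Between Days 42 and 5 the count was 0 to 1 (Cartpt, without FGF1 replicate 3 of Day 42, beside 1.05%).

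With sample weights the log2 FC changed sign for Agrp on Day 1 (0.045), for Agrp and Mc4r on Day 5 against the non-diabetic group (0.0016 and -0.0042), for Mc4r and Pcsk1 against the diabetic group (-0.044 and -0.0031) and for Pomc and Mc4r on Day 42 (0.12 and 0.085). With quantile normalization Mc4r against the diabetic group was -0.00089. With 1 mouse left out, Agrp ranged from -0.32 to 0.35 on Day 1. Against the non-diabetic group, Mc3r ranged from -0.16 to 0.0041 and Pcsk1 from -0.013 to 0.043, and against the diabetic group Mc4r ranged from -0.0067 to 0.10 and Pcsk1 from -0.022 to 0.035. On Day 42, Pomc ranged from -1.12 to 0.84, Mc4r from -0.30 to 0.0062 and Cpe from -0.086 to 0.028. None of these changes of sign concerned a called gene.

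With 1 mouse left out, the Day 5 difference in Agrp to Npy ratio ranged from -0.0081 to 0.17 (non-diabetic), that in Agrp to Pomc from -1.10 to -0.73 (diabetic) and from 0.38 to 0.76 between the vehicle groups. Agrp and Pomc correlated at -0.039 on Day 42. Pomc and Cartpt correlated at -0.023 with a pseudocount of 5, -0.029 without the 2 farthest mice and -0.51 on Day 5, and Pcsk2 and Cpe at 0.30 on Day 1 and 0.22 on Day 5.

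Over all genes, 2776 were called on Day 1 but 1582 with at least 10 counts in every library, where 10973 genes and not Mc4r were tested. On Day 5, 219 genes were called against the non-diabetic group, but 438 with sample weights, 408 with quantile normalization, 370 with Day 5 libraries alone, 372 with merged vehicle groups and 140 with the stricter filter. Against the diabetic group 406 became 639 with quantile normalization and 219 with the stricter filter. Leaving out the 2 deepest FGF1 libraries of Day 5 was chosen after seeing the data. No paired analysis was possible because the labels give no number that pairs mice across groups. Low counts limit Mc4r, and Pomc in the shallow library.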
